A study of Mus musculus with 6 samples.

Results

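Transforming growth factor beta (TGF-beta) genes were followed in mouse liver tumors: the ligand genes Tgfb1, Tgfb2 and Tgfb3, the receptor genes Tgfbr1 and Tgfbr2, the signal-carrying genes Smad2 and Smad3, and Thbs1, for the activator thrombospondin-1. The genes were taken by symbol from the deposited table, and all 8 were present among its 750 endogenous genes. The hosts were male BALB/c mice aged 6 to 7 weeks, and the tumors grew in their livers from BNL-MEA cells, a mouse liver cancer line, placed under the capsule of the left lobe. By title and treatment label the cells of one group had received a plasmid for PD-L1 and those of the other an empty plasmid, and stable clones had been selected with G418, so both groups share the transfection and the selection. Total RNA of tumor tissue was read with a NanoString nCounter panel, which counts RNA molecules by barcoded probes. There were 3 samples labelled PD-L1 (numbered P1, P2 and P3 here, by their replicate numbers) and 3 labelled empty plasmid (E1, E2 and E3).

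The groups come from different clones, so clone and plasmid cannot be told apart. The description of the empty plasmid samples names that plasmid but also calls their clones PD-L1 expressing, and the labels do not settle this. Whether each sample is from a mouse of its own is not in the labels, so the p-values measure the spread between these samples only, which may be technical. The targeted gene itself, Cd274, had no higher level in the group labelled PD-L1. On the log2 scale it read 6.17, 5.36 and 5.87 in P1, P2 and P3 and 6.95, 5.32 and 7.43 in E1, E2 and E3. The difference was -0.76 (limma adjusted p = 0.557). Leaving out 1 sample gave values from -1.39 (without E2) to -0.33 (without E3). No source used here says whether the panel's probe reads the plasmid's transcript, and the groups are therefore named by their labels. Between 1009717 and 1894819 counts per sample on endogenous and reference genes could be recovered from the deposited values. P3 correlated across tested genes with the 3 empty plasmid samples at r = 0.885 to 0.913 and with the other samples of its own group at 0.863 and 0.869. Genes made by hepatocytes differed between the samples more than any of the 8 genes did: the mean log2 value of 22 tested hepatocyte and plasma protein genes was 6.46, 5.76 and 9.33 in P1, P2 and P3 and 8.33, 11.98 and 10.45 in the others.

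TGF-beta is secreted as a latent complex in which a propeptide holds the growth factor. Thrombospondin-1, some integrins and proteases release it. The free ligand binds the type II receptor (Tgfbr2), which phosphorylates the type I receptor (Tgfbr1). The type I receptor in turn phosphorylates SMAD2 and SMAD3, which enter the nucleus with SMAD4. In liver and liver tumors the pathway is known for driving matrix production by stellate cells, for halting the growth of epithelial cells and for restraining T cells.

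The promoters of 2 ligand genes are shown because Tgfb1 varied little and Tgfb2 widely between these samples. The windows come from RefSeq's annotation of GRCm38.p6 and run from 250 bases before to 50 after an annotated transcription start. Capitals mark matches on either strand to 3 motifs that do not overlap one another in these windows. The letters of the TATA box searched were TATAAA. For the GC box they were GGGCGG. For the E-box they were CACGTG.
Tgfb1, chr7:25686752-25687051, plus strand: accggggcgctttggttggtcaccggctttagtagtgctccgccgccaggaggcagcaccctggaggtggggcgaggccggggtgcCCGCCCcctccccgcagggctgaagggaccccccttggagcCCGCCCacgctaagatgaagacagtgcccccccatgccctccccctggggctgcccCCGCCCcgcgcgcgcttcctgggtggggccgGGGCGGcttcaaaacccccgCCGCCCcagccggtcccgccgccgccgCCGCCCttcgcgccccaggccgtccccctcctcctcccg
Tgfb2, chr1:186705940-186706239, minus strand: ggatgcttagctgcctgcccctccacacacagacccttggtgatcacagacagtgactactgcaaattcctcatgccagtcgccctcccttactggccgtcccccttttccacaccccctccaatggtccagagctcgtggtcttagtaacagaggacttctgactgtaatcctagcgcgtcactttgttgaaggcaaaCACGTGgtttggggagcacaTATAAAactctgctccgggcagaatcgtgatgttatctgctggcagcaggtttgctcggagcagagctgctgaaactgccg
The Tgfb1 window held 6 GC boxes, no TATA box and no E-box, and 77.0% of its bases were G or C. In the Tgfb2 window there was 1 TATA box, beginning 31 bases before the start, and 1 E-box, beginning 51 bases before it. It held no GC box, and its G and C content was 54.3%. Of 32851 promoter windows of the same length, 13.6% held the TATA box, 35.7% the GC box and 7.2% the E-box. Promoters of 5 of the 8 genes were matched, and the windows of Smad3, Tgfbr1 and Tgfbr2 held neither TATA box nor E-box. The Smad3 window and a Tgfbr1 window held 2 GC boxes each. Another Tgfbr1 window and the Tgfbr2 window held no GC box. No window was matched for Smad2, Tgfb3 or Thbs1. A match describes the letters of a window and is not a measured binding site, and a link between motifs and spread was not tested.

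None of the 8 genes passed the test between the groups. Thbs1 had the largest difference in size, 2.44-fold higher in the samples labelled PD-L1, and its interval included no change. The PD-L1 group had the higher mean for 5 genes (Thbs1, Tgfb2, Tgfbr2, Smad2 and Tgfb1) and the lower mean for 3 (Tgfbr1, Tgfb3 and Smad3). For all 8 the samples of the groups overlapped. The test was limma, fitted over the 541 genes above the background limit (a mean log2 value of 4.66, set from the negative control probes), which all 8 genes passed. At an adjusted p under 0.05 it called 0 of 541 genes (0%), with a lowest adjusted p of 0.103. At an unadjusted p under 0.05 it called 92 genes (17%) and 0 of the 8. Voom on recovered counts called 0 genes as well, with 83 at an unadjusted p under 0.05. The groups did not overlap for 99 tested genes (18.3%) and for 0 of the 8. The median log2 difference was 0.17 over the 8 genes and -0.12 over all tested genes. Of the 541 tested genes 217 had the higher mean in the PD-L1 group and 324 the lower.

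P3 was closer to the other group by correlation only. By chi-square per degree of freedom on recovered counts it was nearest to P2 (199), then to E1 (339) and P1 (421). Without P3, 0 of the 8 passed and 6 means were higher in the PD-L1 group. The log2 differences were then 0.30 for Tgfb1, 0.91 for Tgfb2, -0.12 for Tgfb3, -0.76 for Tgfbr1, 0.57 for Tgfbr2, 0.37 for Smad2, 0.036 for Smad3 and 1.27 for Thbs1.

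**Figure D1:**
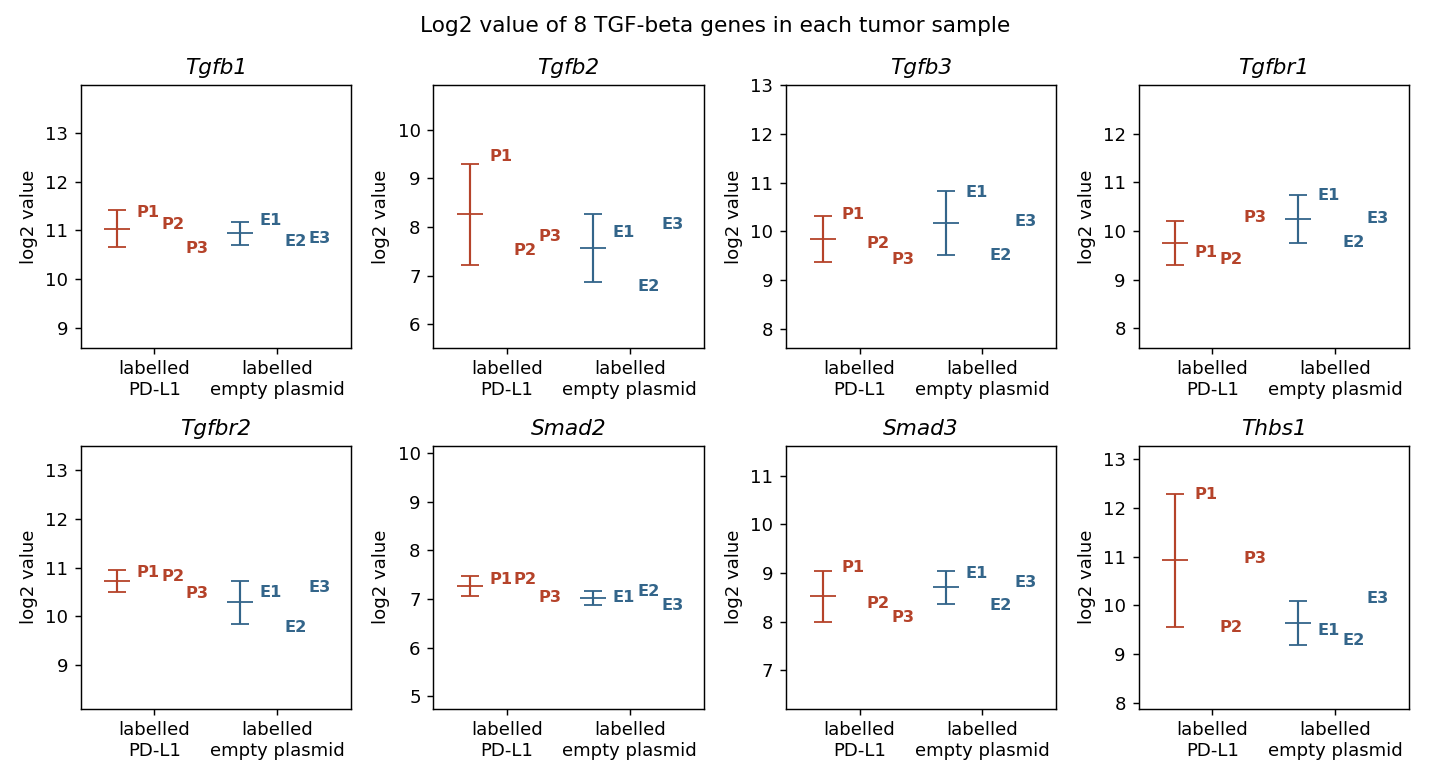
Log2 values of the 8 genes (vertical axes, all spanning the same number of log2 units) in samples labelled PD-L1 (red) and labelled empty plasmid (blue). P and E numbers name the samples, and bars give the mean and SD of 3 samples. Thbs1 and Tgfb2 spread most, with P1 at 12.27 and 9.45, and the groups overlap for every gene.

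Among the ligands, Tgfb1 encodes the isoform most made by immune cells and platelets and differed little. Its log2 values were 11.36, 11.11 and 10.62 in P1, P2 and P3 and 11.21, 10.78 and 10.84 in E1, E2 and E3. Its highest and its lowest values were both in the group labelled PD-L1. The means were 11.03 ± 0.38 and 10.94 ± 0.24 (mean ± SD of 3 samples), which gives a difference of 0.091 ± 0.28 (SE; limma adjusted p = 0.889). The 95% interval ran from 0.671-fold to 1.69-fold. Without P1 the difference was -0.075, and without P3 it was 0.30. Adjusted for the mean of the hepatocyte genes (the hepatocyte covariate), it was -0.37. That mean itself differed between the groups (7.18 ± 1.89 and 10.26 ± 1.83, SD of 3 samples). Values adjusted for it, here and below, therefore cannot separate group from hepatocyte content.

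Tgfb2, the isoform known for its role in heart and craniofacial development, was the most variable ligand gene. In P1, P2 and P3 it stood at 9.45, 7.52 and 7.81, and in E1, E2 and E3 at 7.90, 6.78 and 8.05. Only P1 lay above all empty plasmid samples, and E2 was the lowest of all. Recovered counts of its probe were 938 and 99 in these 2 samples. The means were 8.26 ± 1.04 and 7.58 ± 0.69 (mean ± SD of 3 samples), which gives a difference of 0.69 ± 0.61 with a 95% interval from -0.77 to 2.15 (limma adjusted p = 0.618). Without P1 it was 0.093, without E2 it was 0.29, and with the hepatocyte covariate 0.10.

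The third ligand gene, Tgfb3, known for its role in palate fusion, ran from 9.42 to 10.80. Its values were 10.35, 9.75 and 9.42 in P1, P2 and P3 and 10.80, 9.51 and 10.20 in E1, E2 and E3. P1 and E1 were the highest samples of their groups. The difference was -0.33 ± 0.41 (SE, n = 3 per group; limma adjusted p = 0.71), with a 95% interval from -1.31 to 0.65. Without E1 it was -0.013, and without E2 it was -0.66. With the hepatocyte covariate it was -1.10 (unadjusted p = 0.0447, limma adjusted p = 0.703).

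The 2 receptor genes differed in opposite directions. Tgfbr1, for the type I receptor kinase, stood at 9.56, 9.42 and 10.27 in P1, P2 and P3 and at 10.73, 9.75 and 10.26 in E1, E2 and E3. P1 and P2 lay below every empty plasmid sample, and P3 lay among them. The difference was -0.50 ± 0.36 (SE, n = 3 per group), with a 95% interval from -1.36 to 0.36 (limma adjusted p = 0.529). It was -0.76 without P3 and -0.26 without E1.

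Tgfbr2, for the type II receptor that binds the ligand, stood at 10.90, 10.82 and 10.47 in P1, P2 and P3. In E1, E2 and E3 it stood at 10.49, 9.78 and 10.59. Here the low sample was E2, and the other 5 samples fell between 10.47 and 10.90. The difference was 0.44 ± 0.29 (SE, n = 3 per group), with a 95% interval from -0.26 to 1.15 (limma adjusted p = 0.492). Without E2 it was 0.19. With the hepatocyte covariate it was -0.00314 (limma adjusted p = 0.999).

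The ratio of the receptor probes within a sample does not depend on how samples were scaled. The log2 ratio of Tgfbr1 to Tgfbr2 was -1.34, -1.40 and -0.20 in P1, P2 and P3 and 0.24, -0.026 and -0.33 in E1, E2 and E3. P1 and P2 stood apart from the other 4 samples, and P3 lay within the empty plasmid range. Probes differ in how well they bind, so only the difference of this ratio between groups can be read. It was -0.94 on the log2 scale (means -0.98 ± 0.68 and -0.038 ± 0.28, SD, n = 3 each; two-sided exact permutation p = 0.2). After Benjamini-Hochberg adjustment over the 4 ratios examined the permutation p was 0.4, where 3 against 3 samples cannot give a raw p under 0.1. Without P3 the ratio's difference was -1.33. The other ratios differed by -0.60 (Tgfb1 to Tgfb2), 0.42 (Tgfb1 to Tgfb3) and -0.44 (Smad3 to Smad2), with adjusted exact permutation p of 0.5, 0.4 and 0.4.

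Smad2 and Smad3 encode the proteins that carry the receptor's signal to the nucleus. Smad2 was the steadiest of the 8 genes: its log2 values were 7.40, 7.39 and 7.04 in P1, P2 and P3 and 7.03, 7.16 and 6.87 in E1, E2 and E3. P1 and P2 were the highest samples, and P3 fell between E1 and E2. The difference was 0.26 ± 0.27 (SE, n = 3 per group; limma adjusted p = 0.673), with a 95% interval from 0.757-fold to 1.88-fold. Its probe gave 129 to 225 counts per sample.

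Smad3 stood at 9.11, 8.37 and 8.09 in P1, P2 and P3 and at 8.99, 8.33 and 8.80 in E1, E2 and E3. Both the highest and the lowest value belonged to the group labelled PD-L1. The difference was -0.18 ± 0.36 (SE, n = 3 per group; limma adjusted p = 0.822), and it was 0.036 without P3.

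Thbs1, for thrombospondin-1, a matrix glycoprotein of platelets, macrophages and stromal cells, had the widest range of the 8. Its log2 values were 12.27, 9.54 and 10.96 in P1, P2 and P3, where its probe gave 6619, 875 and 2380 counts. In E1, E2 and E3 they were 9.48, 9.29 and 10.14, with 1203, 564 and 2170 counts. P1 and P3 lay above every empty plasmid sample, and P2 lay among them. The means were 10.92 ± 1.37 and 9.64 ± 0.44 (SD, n = 3 each). The difference of 1.29 ± 0.68 (SE) had a 95% interval from -0.33 to 2.90, or 0.796-fold to 7.49-fold (limma adjusted p = 0.379; two-sided exact permutation p = 0.2).

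Single samples moved the Thbs1 difference more than any change of method. It was 0.61 without P1 and 1.98 without P2 (unadjusted p = 0.00794, limma adjusted p = 0.422). Its range was 1.15 to 1.48 over the 14 alternatives that kept all samples, some of which cannot change a difference. In size 71 of the 541 tested genes differed more than Thbs1.

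**Figure D2:**
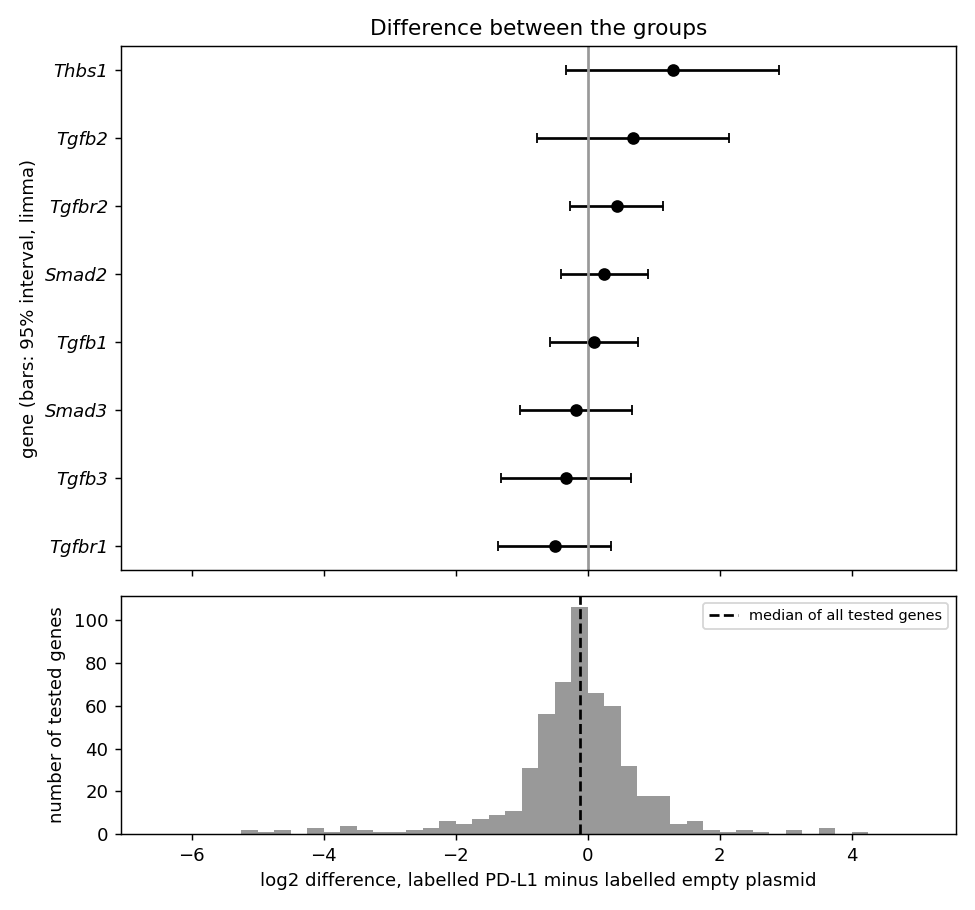
Upper plot: log2 difference of each of the 8 genes, labelled PD-L1 minus labelled empty plasmid, with 95% intervals from limma (n = 3 per group). Lower plot: the same difference for all 541 tested genes, with their median of -0.12 dashed. Every interval includes 0, and the 8 genes lie between -0.50 and 1.29.

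Spread within groups differed between the genes. The pooled SD within groups was 1.02 for Thbs1, larger than that of 87.1% of tested genes, and 0.89 for Tgfb2, larger than that of 82.4%. For Smad2 it was 0.18, larger than that of 5.73%, and for Tgfb1 0.32, larger than that of 26.1%. P1 was the highest sample for 6 of the 8 genes, and E1 for the other two, Tgfb3 and Tgfbr1. Under each of 3 other scalings P1 stayed highest for Tgfb1, Tgfb2, Smad3 and Thbs1. Tgfbr2 was highest in P2 when samples were centred on their medians, and Smad2 was highest there under median centring and quantile normalization. The lowest sample depended on the scaling: E2 was lowest for 3 genes as deposited (Tgfb2, Tgfbr2 and Thbs1) and for 7 when values were rescaled to the reference genes.

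Markers of other cells varied over the same samples. In E2, where Tgfb2, Tgfbr2 and Thbs1 were lowest, the hepatocyte list was highest at 11.98 and the mean of the 8 fibroblast and mesenchymal genes lowest at 9.03, against 9.76 to 10.39 in the other samples. The summed linear level of the 23 hepatocyte list genes on the panel ran from 5705 to 31340 in samples labelled PD-L1 and from 18190 to 154900 in the others. That of the fibroblast genes ran from 38750 to 70210 and from 24640 to 69930. For the 16 macrophage and monocyte genes it ran from 75340 to 187200 and from 52930 to 70980, and for the 3 platelet genes from 153.6 to 436.5 and from 147.7 to 299.3. Of 10 endothelial genes 9 had the lower mean in the PD-L1 group, beside 324 of all 541 tested genes. For 4 of the 10 (Icam2, Kdr, Tek and Tie1) the groups did not overlap, beside 18.3% of tested genes. The median log2 difference of the 10 was -0.54, and 0 passed. The summed level of the endothelial genes ran from 4331 to 10720 and from 6590 to 8938. Within these 5 lists no gene lay under the background limit in all 6 samples. Of 13 T and B cell genes on the panel only 3 passed the background limit (Cd3d, Cd3g and Cd79b), and each lay under it in P1. All 3 had the lower mean in the PD-L1 group, with a median of -1.05 and 0 past the test. With no limit applied, the median over the 13 genes was -0.27. The PD-L1 group had the higher mean for 14 of 16 macrophage genes, beside 217 of 541 tested genes, and 0 of the 16 passed. Mrc1, the mannose receptor, was higher by 2.53 (limma adjusted p = 0.225). Ppbp, the platelet chemokine precursor, stood at 6.75, 5.55 and 6.27 in P1, P2 and P3 and 4.65, 5.01 and 5.17 in the others (limma adjusted p = 0.256). In E1 it lay under the background limit. The other platelet genes, Itga2b and Itgb3, differed by -0.50 and 0.14. Hepatocyte and fibroblast list means were entered as covariates in alternative fits. All 22 tested hepatocyte genes had the lower mean in the PD-L1 group, so that covariate and the labels are not separated by these 6 samples. The part of platelets and macrophages in the Thbs1 values, and of endothelial cells in those of Vegfa, Vegfc and Eng given further on, was not tested. In tumor tissue, fewer cells of a type and less RNA per cell cannot be told apart.

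**Figure D3:**
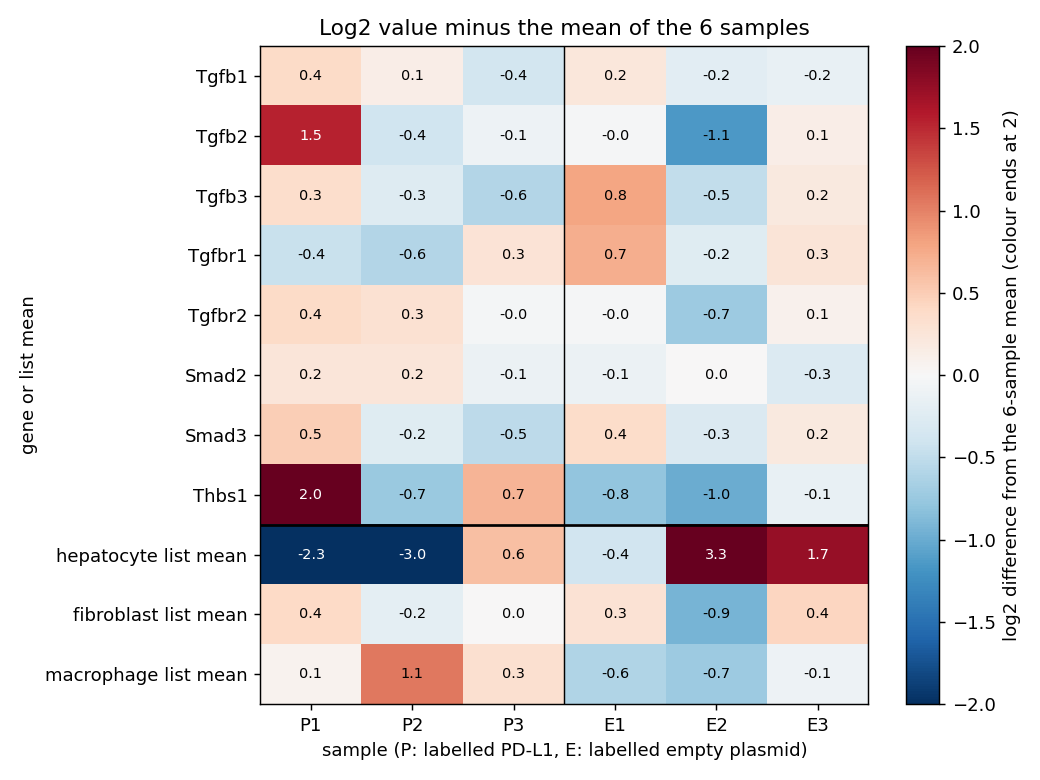
Log2 value of each gene, and of the mean of 3 marker lists, minus its mean over the 6 samples (colour and printed value; columns are samples). Red is above and blue below that mean. P1 is highest for 6 of the 8 genes, and E2 combines low Tgfb2, Tgfbr2 and Thbs1 with the highest hepatocyte mean.

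Over the 6 samples the members formed no single pattern. Of 28 pairs of the 8 genes 22 had a positive Pearson r, with a median of 0.38, against 0.015 over all pairs of tested genes. These values rest on 6 samples that share scaling and tissue makeup, and they are given as a description. Tgfb3 and Smad3 were most alike (r = 0.92), followed by Tgfb2 and Thbs1 (r = 0.87). Tgfbr1 stood apart: its r with Smad2 was -0.83 and with Tgfbr2 -0.17.

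Picking the highest r among all tested genes over 6 samples gives high values by itself. The values below are therefore a description, and co-regulation was not tested. Outside the 8 genes, the tested genes with the highest r over the 6 samples were these. For Thbs1 they were Itga5, the alpha chain of the main fibronectin receptor (r = 0.97), and Ccl11, for eotaxin-1, an eosinophil attractant (r = 0.95). Itga5 was also among the nearest to Tgfb2 (r = 0.94). Its log2 values were 10.66, 9.93 and 10.23 in P1, P2 and P3 and 9.99, 9.83 and 10.22 in the others, so it was highest and lowest in the same samples as Thbs1 and Tgfb2, over a narrower range. Ccl11 stood at 7.66, 5.60 and 6.19 in P1, P2 and P3 and at 4.62, 4.41 and 5.23 in the others (limma adjusted p = 0.256). The groups did not overlap for it, as for 18.3% of tested genes. In E1 and E2 it lay under the background limit.

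Each of the remaining genes had other neighbours. Tgfb1 was most alike to Snai1, a transcription factor of epithelial-mesenchymal transition (r = 0.97), and to the protease gene Mmp9 (r = 0.94). The nearest to Tgfbr2 were Colec12, a scavenger receptor with a collagen-like and a lectin part (r = 0.99), and Abcg1, a cholesterol exporter (r = 0.98). For Tgfbr1 they were Pou2f2, a B cell transcription factor (r = 0.97), and Klrd1, for the natural killer receptor chain CD94 (r = 0.96). The lowest counts of these probes were 39 for Pou2f2 and 34 for Klrd1. Smad3 was most alike to Socs3, a feedback inhibitor of cytokine signalling (r = 0.99), and Smad2 to the tetraspanin gene Cd81 (r = 0.94).

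Of 45 further TGF-beta family and signalling genes listed, 7 were on the panel and tested, and 0 passed. Smad4, the shared partner of SMAD2 and SMAD3, stood at 10.27, 10.20 and 9.82 in P1, P2 and P3. In the empty plasmid samples it stood at 9.78, 9.71 and 10.30, a difference of 0.16 ± 0.27 (SE, n = 3 per group). Eng, for the endothelial co-receptor endoglin, differed by -0.35 ± 0.32. The coactivator genes Crebbp and Ep300, whose products SMAD complexes recruit, differed by -0.60 ± 0.37 and -0.36 ± 0.38. The median log2 difference of these 7 genes was -0.15, beside -0.12 for all tested genes.

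Genes of latency and activation were represented by 4 tested genes (Itgb1, Itgb3, Mmp9 and Plau), of which 0 passed. Itgb1, for the integrin beta-1 chain, stood at 13.08, 13.17 and 13.12 in P1, P2 and P3 and at 12.60, 12.81 and 12.75 in the others. All samples labelled PD-L1 lay above all empty plasmid samples, as 1 of the 4 genes without overlap beside 18.3% of tested genes. The difference was 0.40 ± 0.21 (SE, n = 3 per group; limma adjusted p = 0.385). Itgb3, for the beta-3 chain, differed by 0.14 ± 0.62 and Mmp9 by -0.025 ± 0.28.

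Thrombospondin-1 receptors gave 7 tested genes, with 3 means higher and 4 lower in the PD-L1 group and 0 past the test. Cd36, a scavenger receptor that binds thrombospondin-1, stood at 6.37, 8.64 and 8.02 in P1, P2 and P3 and at 7.25, 8.98 and 8.70 in the others. It was lowest in P1, the sample with the highest Thbs1. Its difference of -0.64 ± 0.71 (SE, n = 3 per group) became 0.016 without that sample. Itga4, for the integrin alpha-4 chain, differed by -0.82 ± 0.41 (limma adjusted p = 0.355).

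Of 30 listed genes known to be induced by TGF-beta, 15 were on the panel and 11 were tested. In the PD-L1 group 5 means were higher and 6 lower, 0 passed, and the median log2 difference was -0.0035. Foxp3, which TGF-beta induces in regulatory T cells, and Il11 lay under the background limit in all 6 samples, and Itgae and Runx3 were left out by the same limit on their means. Vegfc, a growth factor of lymphatic vessels, stood at 5.71, 6.85 and 7.69 in P1, P2 and P3 and at 8.23, 7.60 and 8.62 in the others. P3 lay just above the lowest empty plasmid sample. The difference was -1.40 ± 0.56 (SE, n = 3 per group; unadjusted p = 0.0427, limma adjusted p = 0.291), the only 1 of the 11 under 0.05 beside 17% of tested genes. Without P3 it was -1.87 (limma adjusted p = 0.177).

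Vegfa, for the blood vessel growth factor, differed by -0.80 ± 0.40 (SE, n = 3 per group), and by -0.085 with the hepatocyte covariate. Runx1, for a transcription factor that works with SMADs, differed by -0.51 ± 0.26 without overlap between the groups. It was the only 1 of the 11 tested genes of this list without overlap, beside 18.3% of all tested genes. Among matrix and mesenchymal genes Vim, for the filament protein vimentin, differed by 0.47 ± 0.38 and Col3a1, for type III collagen, by 0.46 ± 0.45. None of these 4 genes passed (limma adjusted p from 0.355 to 0.647).

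**Figure D4:**
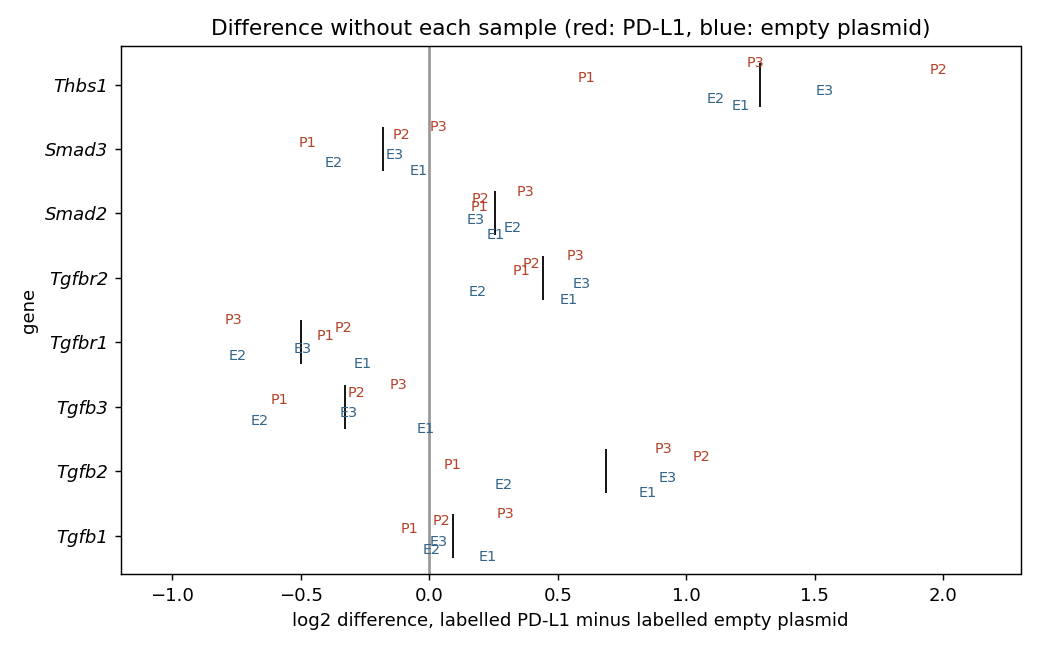
Log2 difference of each gene, labelled PD-L1 minus labelled empty plasmid, when 1 sample was left out (marked by the sample left out, P for labelled PD-L1, E for labelled empty plasmid) and with all samples (black bars). Vertical offsets only keep the marks apart. Thbs1 runs from 0.61 to 1.98, and Tgfb1 and Smad3 cross 0.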

How the data were processed

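Per the labels' protocols, total RNA of 6 tumor samples was read with a NanoString panel without dye labels. The authors deposited log2 values, scaled per sample by a factor not given in the sources used here. In each sample 2 to the power of the value was a whole number times 1 factor (0.519 to 1.11) plus 0.158, within 0.02, which gave the counts. Both deposited tables hold identical values for 770 genes.

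Genes were tested if their mean reached the negative controls' mean plus 2 SD (4.66). limma 3.58.1 in R 4.3.3 compared the groups (lmFit, eBayes with trend, Benjamini-Hochberg at 0.05); exact permutation tests were two-sided. The fit was tested on simulated data. Alternatives were those of the closing section; voom used TMM factors. The members, gene lists and tests were chosen with earlier results of these data known. Named were the 8 genes, the 4 smallest p of each list and the 2 genes most alike to each member, not all of which are described; Cd274 was added as the targeted gene. Accessions of all 8 genes matched RefSeq's table for GRCm38.p6. Same-numbered samples deviated from their group means with correlations of 0.274, -0.203 and -0.126. With 3 samples per group these values cannot decide whether the numbers pair samples, and the main fit left them unpaired. Figures used matplotlib 3.10.9.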

Additional observations from a re-analysis of the deposited data

How the results depend on the processing

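Alternatives changed the scaling, trend, background limit, added constant, control subtraction, table, model or samples, and none called any of the 8 genes. The count of called genes became 1 when values were rescaled to the reference genes and was 0 otherwise. Median centring and quantile normalization moved the median difference of all tested genes by 0.16 and 0.15. With the replicate block, 0 genes were called and 80 had an unadjusted p under 0.05, against 92 without it. The Thbs1 difference was 1.29 (limma adjusted p = 0.394), since the block cannot change a difference in this balanced design. The count of 92 ran from 38 to 92 when 1 sample was left out (38 without P2, 51 without E3), and was 30 with the hepatocyte covariate.

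Of 8 genes 5 kept their direction under all 20 alternatives. Changing the trend, background limit, table or replicate block cannot alter a difference, so those alternatives could not turn a direction. Leaving out 1 sample gave -0.075 to 0.30 for Tgfb1 and -0.47 to 0.036 for Smad3. With the hepatocyte covariate Tgfb1 was -0.37 and Tgfbr2 -0.00314. Among 26 other genes 503 of 520 values kept their direction, counting the alternatives that could not turn it. That count includes Vim with quantile normalization, where its difference of 0.47 fell to 2.8e-15. With the hepatocyte covariate the sign turned for Abcg1 (-0.34), Cd36 (0.15), Colec12 (-0.00792), Itgb3 (-0.46), Smad4 (-0.029) and Snai1 (-0.46), and with the fibroblast covariate for Itgb3 (-0.042). Mmp9 turned to 0.00405 with reference genes, 0.13 with median centring, 0.12 with quantile normalization and 0.053 with voom. Leaving out 1 sample gave -1.17 to 0.016 for Cd36, -0.42 to 0.51 for Itgb3, -0.12 to 0.12 for Mmp9 and -0.046 to 0.56 for Snai1. Ccl11 moved from 1.73 to 2.32 with control subtraction and to 1.14 without P1, and Vegfa from -0.80 to -0.085 with the hepatocyte covariate. The causes were not tested. Probes of the 8 genes gave 99 to 6619 counts. Samples of 1 group differed by a chi-square of 199 to 671 per degree of freedom, far above counting error.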
